A study of Mus musculus with 6 samples.

Results

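This account covers 10 genes used to mark preadipocytes and stromal progenitors of fat: Pdgfra, Pdgfrb, Dlk1, Ly6a, Cd34, Dpp4, Pi16, Thy1, Gata2 and Gata3. Every probe set whose platform annotation names one of these genes was taken. That gave 18 of the 45101 probe sets on the array, for 9 of the 10 genes. Ly6a had none under its symbol and was not analysed here. The 3 rosiglitazone samples were mouse inguinal fat cells, differentiated in culture and given 1 uM rosiglitazone for 4 days, an activator of the nuclear receptor PPARγ, and the labels call their state beiging. The 3 control samples were the same kind of differentiated cells, labelled as control and non-activated, and were taken as dose 0 at the same day 4. The labels do not state whether the arrays of a group represent separate cultures. The p-values therefore read only the scatter among these arrays, and it may be technical. The question of the design was how these white fat depot cells differ when the drug is present.

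Fat cells arise from fibroblast-like cells of the tissue stroma. PDGF receptors, the surface proteins CD34, THY1 and Sca-1 (the product of Ly6a) and the peptidase DPP4 are carried by such stromal cells and are used to sort them, and they are low in mature fat cells. DLK1 (Pref-1) and the transcription factors GATA2 and GATA3 are known to restrain the differentiation of mouse preadipocytes, so their transcripts are used to mark cells that have not matured. In mouse subcutaneous fat, Dpp4 and Pi16 mark progenitors of the fibrous interstitium around the depot.

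Start-site regions were taken for members that moved in the results below, so that the control regions of genes that fell together can be read beside that of the gene that rose. They come from RefSeq on build GRCm38.p6, run 5′ to 3′ on the gene's strand and cover 250 bases before and 50 bases after the listed start. Windows of 7 of the 10 genes, with 8 promoters, were used from this table. None was used for Pdgfrb and Thy1, which fell, or for Ly6a. For Gata2 the downstream of its 2 listed starts is shown. Capitals mark matches, on either strand, to the 5 motifs searched.
Pdgfra, chr5:75152001-75152300, plus strand: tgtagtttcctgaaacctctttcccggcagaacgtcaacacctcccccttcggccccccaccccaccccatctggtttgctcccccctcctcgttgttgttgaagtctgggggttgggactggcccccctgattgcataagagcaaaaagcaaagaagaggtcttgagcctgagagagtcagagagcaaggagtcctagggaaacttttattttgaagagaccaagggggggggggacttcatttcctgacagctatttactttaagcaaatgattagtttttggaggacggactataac
Dlk1, chr12:109452573-109452872, plus strand: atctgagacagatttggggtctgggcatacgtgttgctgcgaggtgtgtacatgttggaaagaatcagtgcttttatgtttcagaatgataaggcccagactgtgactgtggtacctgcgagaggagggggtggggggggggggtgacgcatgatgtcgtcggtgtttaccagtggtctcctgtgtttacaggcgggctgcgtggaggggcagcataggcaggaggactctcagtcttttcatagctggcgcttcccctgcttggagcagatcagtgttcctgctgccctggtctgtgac
Cd34, chr1:194938571-194938870, plus strand: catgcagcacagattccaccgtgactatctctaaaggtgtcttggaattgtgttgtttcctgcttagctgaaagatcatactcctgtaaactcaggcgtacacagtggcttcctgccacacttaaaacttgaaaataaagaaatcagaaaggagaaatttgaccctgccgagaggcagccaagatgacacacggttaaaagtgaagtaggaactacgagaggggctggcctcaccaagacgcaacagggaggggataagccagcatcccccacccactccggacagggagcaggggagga
Gata2, chr6:88198414-88198713, plus strand: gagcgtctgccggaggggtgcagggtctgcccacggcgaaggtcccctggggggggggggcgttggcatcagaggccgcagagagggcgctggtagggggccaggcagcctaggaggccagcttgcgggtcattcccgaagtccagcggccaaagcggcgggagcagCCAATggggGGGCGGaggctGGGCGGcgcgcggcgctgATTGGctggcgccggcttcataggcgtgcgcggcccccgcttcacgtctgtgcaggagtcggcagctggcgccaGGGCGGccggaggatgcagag

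The motifs searched were the GATA core AGATAA, the CCAAT box CCAAT, the GC box GGGCGG, the TATA box TATAAA and the nuclear receptor half-site AGGTCA. None of these motifs stands in the windows printed for Pdgfra, Dlk1 or Cd34. The printed Gata2 window holds 2 CCAAT boxes, at bases −83 and −45 from the start, and 3 GC boxes, at −74, −63 and 30. The window of the other Gata2 start, not printed, holds a GC box at −131 and no CCAAT box. The bases G and C make up 73.7% of the printed Gata2 window. They make up 51.0% of that of Pdgfra, 55.7% for Dlk1 and 50.0% for Cd34. Of 32851 promoters of this length in the table, 37.4% hold a CCAAT box, 35.7% a GC box, 16.3% the half-site, 13.6% the TATA box and 11.2% the GATA core. Of the 8 member promoters, 3 hold a GC box, 2 a CCAAT box, 1 the TATA box, 1 the GATA core and none the half-site. Pi16, which was not called, has a CCAAT box at −64. Gata3, which was not tested, has GC boxes at −188 and −176 and 67.3% G and C. Whether motifs or base content go with the direction of change was not tested. A match is a description of the letters and not a binding site.

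Of the 7 markers bright enough to test, 5 fell in rosiglitazone cells: Pdgfra, Pdgfrb, Dlk1, Thy1 and Cd34, to between 35.9% and 54.4% of the control mean. Gata2 rose to 122.7% of the control mean, and Pi16 did not pass the test. Dpp4 and Gata3 lay under an intensity of 16 on all 6 arrays in every probe set and were not tested. Values are deposited probe set intensities, and changes are differences of log2 intensity, rosiglitazone minus control, with values under 16 set to 16. Each gene was read from its brightest probe set and called at a Benjamini-Hochberg adjusted p under 0.05 in limma, adjusted over all 12936 genes tested. The brightest sets were 1421917_at for Pdgfra, 1436970_a_at for Pdgfrb, 1449939_s_at for Dlk1, 1423135_at for Thy1, 1416072_at for Cd34, 1450333_a_at for Gata2 and 1453839_a_at for Pi16.

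These counts stand against a broad response of the whole array. Of all genes tested, 35.7% were called lower and 23.6% higher with rosiglitazone, and the groups did not overlap for 63.9% of genes, against 6 of the 7 tested markers. The median log2 change was −0.99 over the 7 tested markers and −0.05 over all genes tested. In a fit of single probe sets, 8 of the 10 tested marker probe sets were called lower and 1 higher, where 30.6% of the 27022 probe sets tested were called lower and 21.1% higher. Across the array 3047 genes were called higher and 4614 lower, and this split moved with scaling, to 3935 higher and 3761 lower with quantile normalization and to 4544 higher and 3264 lower with median centring. Centring moved the median change of all genes by 0.12 on the log2 scale, to 0.07. The numbers of markers called were the same under both scalings. Array medians lay between 44.46 and 46.66, and log2 intensities correlated at 0.994 to 0.996 within groups and at 0.984 to 0.985 between them, so no array stood apart from its group.

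**Figure D1:**
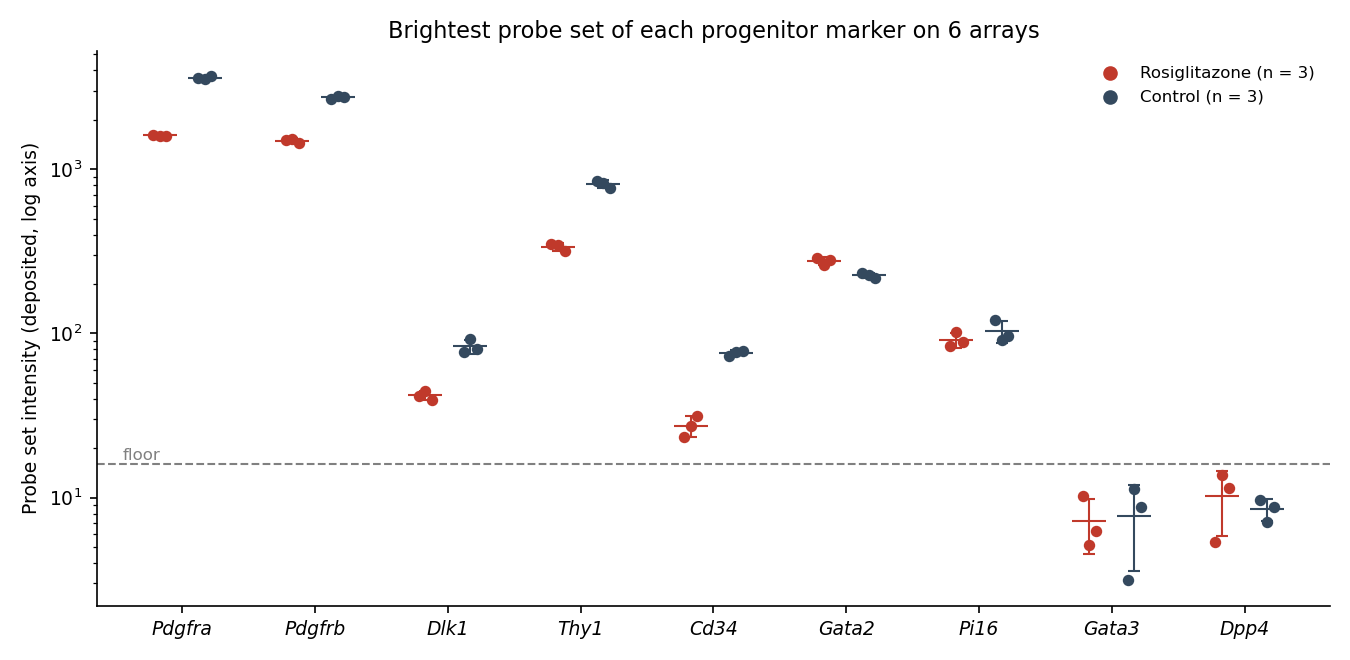
Deposited intensity (log axis) of the brightest probe set of each of 9 markers, with each array as a point, the mean as a horizontal bar and the SD as the error bar, rosiglitazone left of control. The groups stand apart for Pdgfra, Pdgfrb, Dlk1, Thy1, Cd34 and Gata2, and Gata3 and Dpp4 lie under the dashed floor of 16.

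Pdgfra and Pdgfrb encode the 2 receptor tyrosine kinases for platelet-derived growth factors. PDGFRα marks fat progenitors and other fibroblasts, and PDGFRβ marks mural cells and a part of the progenitors. Pdgfra had intensities of 1613, 1597 and 1605 in rosiglitazone cells, against 3614, 3544 and 3698 in control cells. All rosiglitazone arrays lay far below all control arrays. The means were 1605 ± 7.90 and 3619 ± 77.4 (SD, n = 3 each), a log2 change of −1.17 (SE 0.03, limma adjusted p = 1.7e-14). A change at or below this value was seen in 359 genes, 2.78% of those tested.

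Pdgfra was measured by 2 further probe sets. Probe set 1421916_at read 83.6, 76.1 and 76.2 in rosiglitazone cells and 165.3, 198.2 and 217.4 in control cells, a log2 change of −1.29 (SE 0.11). Probe set 1438946_at read 244.4, 203.4 and 223.3 in rosiglitazone cells and 269.7, 307.7 and 282.5 in control cells, a log2 change of −0.36 (SE 0.08, limma adjusted p = 0.0011 over all probe sets). All 3 probe sets were called lower and none had overlapping groups. The change of 1438946_at was 0.81 smaller in size on the log2 scale than that of the brightest set 1421917_at, and the per-array ratios of the 2 sets did not overlap between the groups (exact permutation test, two-sided, p = 0.1, the smallest that 3 against 3 arrays can give, and 0.3 adjusted over the 3 pairs of sets compared). Which transcripts each set reads was not tested. Averaged over the sets it was −0.94.

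Pdgfrb read 1500.0, 1538 and 1436 in rosiglitazone cells, against 2675, 2807 and 2737 in control cells. The groups were again fully apart, with means of 1491 ± 51.3 and 2739.9 ± 66.0 (SD, n = 3 each) and a log2 change of −0.88 (SE 0.04, limma adjusted p = 2.6e-12). Its second probe set, 1417148_at, read 213.3, 194.0 and 201.2 in rosiglitazone cells and 413.6, 476.9 and 385.5 in control cells, a log2 change of −1.06 (SE 0.08). The changes of the 2 Pdgfrb sets differed by 0.19 in size with overlapping per-array ratios (exact permutation p = 0.2), and with 3 arrays a group this test could not have passed 0.05.

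Around the receptors, the list of PDGF ligands and receptor partners had 6 of 9 tested genes lower and 1 higher, with a median log2 change of −0.48. Over the array, 35.7% of genes tested were called lower and 23.6% higher. Of the ligands, Pdgfc fell most, at 528.6, 530.0 and 531.6 in rosiglitazone cells against 835.9, 823.9 and 858.1 in control cells (log2 change −0.66, SE 0.04). Pdgfa fell by 0.24 on the log2 scale, a call that was lost after quantile normalization (−0.13) and after median centring (−0.11). Pdgfb, at −0.39 (SE 0.18, limma adjusted p = 0.066), and Pdgfd, at −0.14 (SE 0.09), did not pass the test. Plat, which encodes the protease that activates PDGF-CC, fell by 1.31 (−0.47 when its sets were averaged), and the receptor-like gene Pdgfrl fell by 1.43 (SE 0.24), a call lost with a floor of 64 (−0.29). Pik3r1, the regulatory subunit gene of phosphoinositide 3-kinase, fell by 0.59, and Nrp1, a co-receptor gene, by 0.48. The 1 gene called higher was Ptpn11, which encodes the phosphatase SHP2 (0.17). Nrp1 and Ptpn11 were named after their values were seen.

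**Figure D2:**
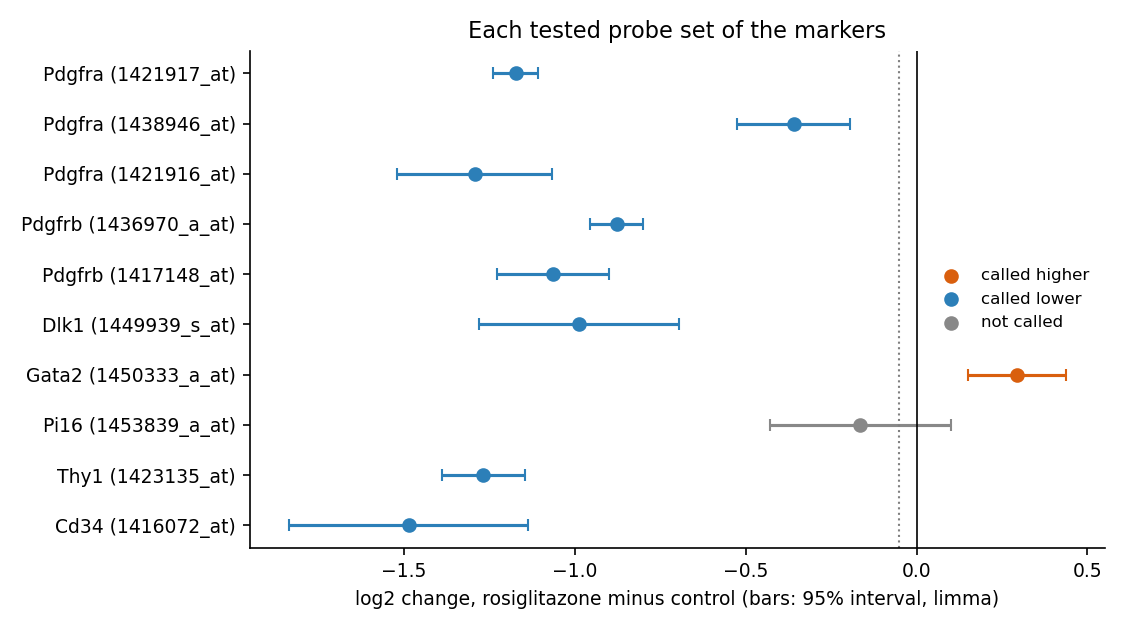
Log2 change, rosiglitazone minus control, of the 10 tested probe sets of the markers, with the 95% limma interval as the bar and the median of all genes as the dotted line. Of these, 8 lie left of 0 with their whole interval, Gata2 lies right of it and the interval of Pi16 spans 0.

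Dlk1 encodes a transmembrane protein with epidermal growth factor repeats whose shed ectodomain restrains fat cell differentiation in mice. It read 41.8, 44.7 and 39.4 in rosiglitazone cells, against 76.6, 92.7 and 80.7 in control cells. Every rosiglitazone value was below every control value, with means of 42.0 ± 2.65 and 83.35 ± 8.38 (SD, n = 3 each). The log2 change was −0.99 (95% interval −1.28 to −0.69, limma adjusted p = 1.2e-05). With a floor of 64, above all its rosiglitazone values, the change was −0.38 and still called. Its other probe set, 1442724_at, lay between 4.76 and 7.90 in rosiglitazone cells and between 5.02 and 7.34 in control cells, under the floor, and was not tested. The set read here ends in _s_at, a suffix for probes that can match transcripts of more than 1 gene.

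Dlk1 lies in an imprinted cluster in which the paternal copy gives Dlk1 and the maternal copy gives the noncoding RNAs Meg3, Rian and Mirg. Meg3 fell as well, reading 808.6, 802.8 and 853.7 in rosiglitazone cells against 2537, 2462 and 2334 in control cells (log2 change −1.57, SE 0.04, and −0.88 when its sets were averaged). Rian fell by 1.52 (SE 0.07), to 117.8 ± 6.94 in rosiglitazone cells against 338.0 ± 3.77 in control cells (SD, n = 3 each). Mirg had a log2 change of −0.18 (SE 0.12, limma adjusted p = 0.24) and overlapping groups. Sox9, a transcription factor gene induced by DLK1 signalling in mouse preadipocytes, read 20.8, 18.4 and 21.1 in rosiglitazone cells and 82.9, 78.9 and 71.85 in control cells, a log2 change of −1.95 (SE 0.18), which was −0.28 with a floor of 64. All rosiglitazone values of Sox9 lay under the filter cut of about 26.6, so it was tested only through its control values. Over the list of Dlk1 locus and handling genes, 3 of 6 tested genes fell, where 35.7% of all genes tested were called lower. Dlk2, a relative of Dlk1, and Adam17, the shedding protease gene, did not pass the test (0.18 and −0.03). Mirg, Dlk2 and Adam17 were named after their values were seen.

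Thy1 and Cd34 encode cell surface glycoproteins of stromal cells. Thy1, a GPI-anchored protein also carried by T cells, read 349.9, 347.0 and 316.5 in rosiglitazone cells, against 843.9, 830.1 and 765.7 in control cells. All rosiglitazone arrays lay below all control arrays, with means of 337.8 ± 18.5 and 813.3 ± 41.7 (SD, n = 3 each) and a log2 change of −1.27 (SE 0.06, limma adjusted p = 7.3e-12). Of 9 genes listed as lymphocyte markers 5 were tested and 2 fell, where 35.7% of all genes tested were called lower. Ptprc, also in the list of macrophage markers, fell by 1.17 and Rora by 0.84, and neither gene is particular to lymphocytes. Cd79b (0.50) and Il7r (0.28) did not pass the test. The summed intensity of the 5 tested markers lay between 1375 and 1469.8 on rosiglitazone arrays and between 2333 and 2421 on control arrays. Most of this sum was Rora, with means of 1046 in rosiglitazone cells and 1870 in control cells. Cd8a lay between 104.9 and 113.3 in rosiglitazone cells and between 99.2 and 117.4 in control cells, Cd3e between 1 and 3.22 and Cd4 between 1 and 5.68 on the 6 arrays. The part of lymphocytes in the fall of Thy1 was not tested. Cd79b, Il7r, Cd8a, Cd3e and Cd4 were named after their values were seen. A fall at least as large as that of Thy1 was seen in 276 genes, 2.13% of those tested.

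Cd34, a sialomucin gene also expressed in endothelial cells, read 23.3, 27.45 and 31.5 in rosiglitazone cells, against 73.2, 77.55 and 77.9 in control cells. It had the largest change of the 7 tested markers, −1.49 on the log2 scale (95% interval −1.84 to −1.13, limma adjusted p = 9.9e-07), with means of 27.4 ± 4.10 and 76.2 ± 2.62 (SD, n = 3 each). Its rosiglitazone values were near the low end of the intensities kept, so the size depended on the floor: with a floor of 64 it was −0.25 and still called. Of 8 endothelial markers 6 were too dim to test, among them Pecam1 at 6.03 to 20.44, Cdh5 at 2.97 to 27.85 and Kdr at 2.25 to 16.55 over the 6 arrays. The 2 tested ones, Flt1 (−1.57, and −0.78 when its sets were averaged) and Tek (−1.15), fell, and their part in the fall of Cd34 was not tested.

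Of 7 tested relatives of Ly6a and Thy1 with the same lipid anchor, 2 were called higher and 2 lower. Both counts lay near the shares over all genes tested, 23.6% higher and 35.7% lower. The median log2 change of the list was −0.07 (0.05 after median centring). Ly6e fell by 0.70, to 405.7 ± 39.6 in rosiglitazone cells against 656.8 ± 30.7 in control cells (SD, n = 3 each). Lypd1 rose by 1.06 and Cd59a, which encodes an inhibitor of complement lysis, rose by 0.52. Plaur, the urokinase receptor gene, fell by 0.46, a call lost after median centring (−0.34) and with a floor of 64 (−0.01).

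Pi16 encodes a secreted peptidase inhibitor family protein, and Dpp4 a membrane peptidase (CD26). Pi16 read 83.6, 102.05 and 88.4 in rosiglitazone cells, against 120.75, 90.9 and 96.7 in control cells. The groups overlapped, and the log2 change of −0.16 did not pass the test (95% interval −0.43 to 0.10, limma adjusted p = 0.27). Its second probe set lay between 1.81 and 7.63 on the 6 arrays. The 4 Dpp4 probe sets lay between 2.28 and 13.69 in rosiglitazone cells and between 2.97 and 13.06 in control cells, so no direction can be read.

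Other genes related to these proteins were mostly lower: 6 of 9 tested genes of the list of DPP4 and PI16 relatives fell and 1 rose, with a median of −0.43. Over all genes tested the shares were 35.7% lower and 23.6% higher. Cxcl12, a stromal chemokine that DPP4 cleaves, read 2149 ± 45.1 in rosiglitazone cells and 4791 ± 180.1 in control cells (SD, n = 3 each), a log2 change of −1.16. Crispld2, Glipr2 and Glipr1, which share the CAP domain of PI16, fell by 0.83, 0.80 and 0.69, and Glipr1 had −0.25 when its sets were averaged. The 1 rise was Dpp8 (0.16), a gene of an intracellular peptidase related to DPP4. Of the other peptidase genes in the list, Fap (−0.43) and Dpp7 (−0.26) fell, and Dpp9 (−0.05) and Prep (−0.06) did not pass the test. All of these peptidase genes were named after their values were seen.

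Gata2 and Gata3 encode zinc finger transcription factors. Gata2 read 289.85, 260.45 and 281.8 in rosiglitazone cells, against 233.2, 227.6 and 217.6 in control cells. All rosiglitazone values were above all control values, with means of 277.4 ± 15.2 and 226.1 ± 7.92 (SD, n = 3 each) and a log2 change of 0.29 (SE 0.07, limma adjusted p = 0.0010). It was the single tested marker that rose. Over the 17 alternatives its change stayed between 0.25 and 0.42 and was called in each. Its second probe set, 1428816_a_at, read 27.5, 13.9 and 18.9 in rosiglitazone cells and 25.7, 17.6 and 24.3 in control cells, too dim to test and with overlapping groups. A rise of at least this size was seen in 2041 genes, 15.8% of those tested.

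Gata3 read 10.2, 5.13 and 6.30 in rosiglitazone cells and 3.13, 11.2 and 8.77 in control cells, under the floor on every array. Of the GATA family and its cofactors, 4 of 8 tested genes fell and 1 rose, with a median of −0.16. Of all genes tested, 35.7% were called lower and 23.6% higher. In this list 3 genes fell after quantile normalization (median −0.05) and 3 after median centring (median −0.03). Zfpm2 and Zfpm1 encode the FOG proteins that bind GATA factors. Zfpm2 read 137.2, 133.8 and 141.6 in rosiglitazone cells and 262.9, 272.4 and 297.3 in control cells (log2 change −1.01, SE 0.07), and Zfpm1 fell by 0.66 (SE 0.11). Gata6 fell by 0.25, a call lost after quantile normalization (−0.13), after median centring (−0.13) and when its sets were averaged (−0.12). Gata1 and Gata4 did not pass the test (0.01 and 0.12), and Gata5 lay between 3.71 and 23.4 on the 6 arrays and was not tested. Cebpa and Cebpb encode partners that GATA factors bind. Cebpa fell by 0.25 (−0.12 after median centring), and Cebpb, named after its value was seen, rose by 0.18. Mast cells also express Gata2. Of 7 mast cell markers 2 were tested. Cma1 read 34.8, 40.03 and 48.4 in rosiglitazone cells and 35.2, 35.7 and 28.5 in control cells, with overlapping groups. Its log2 change of 0.30 (SE 0.20, limma adjusted p = 0.21) did not pass the test. Tpsb2 had a log2 change of 0.07. The summed intensity of both lay between 70.2 and 89.2 on rosiglitazone arrays and between 66.3 and 75.7 on control arrays. The other mast cell markers were too dim to test. Over the 6 arrays Kit lay between 3.25 and 18.35, Cpa3 between 11.86 and 28.66 and Mcpt4 between 1 and 5.1. Fcer1a lay between 4.7 and 13.55 and Ms4a2 between 4.29 and 23.13. The part of mast cells in the rise of Gata2 was not tested.

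The order of the log2 changes, from the largest fall, was Cd34, Thy1, Pdgfra, Dlk1, Pdgfrb, Pi16 and Gata2, with the floor of 16 and the brightest sets. With a floor of 64, Cd34 (−0.25) and Dlk1 (−0.38) came after Thy1, Pdgfra and Pdgfrb, and with sets averaged Pdgfra (−0.94) came after Dlk1 and Pdgfrb (−0.97). Neighbours in this order were compared through the log2 ratio of their probe sets on each array, which reads unequal change and no level. The first 4 neighbouring pairs overlapped between rosiglitazone and control arrays, with differences in change of 0.22, 0.10, 0.19 and 0.11 in size. The ratio of Pdgfrb to Pi16 did not overlap (difference −0.71), nor did that of Pi16 to Gata2 (difference −0.46). For these last 2 pairs the exact permutation p was 0.1, the smallest possible with 3 arrays in each group, and 0.3 after adjustment over the 6 pairs. The pairs were set by changes on these same arrays, and how often ratios of other gene pairs stay apart was not counted.

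**Figure D3:**
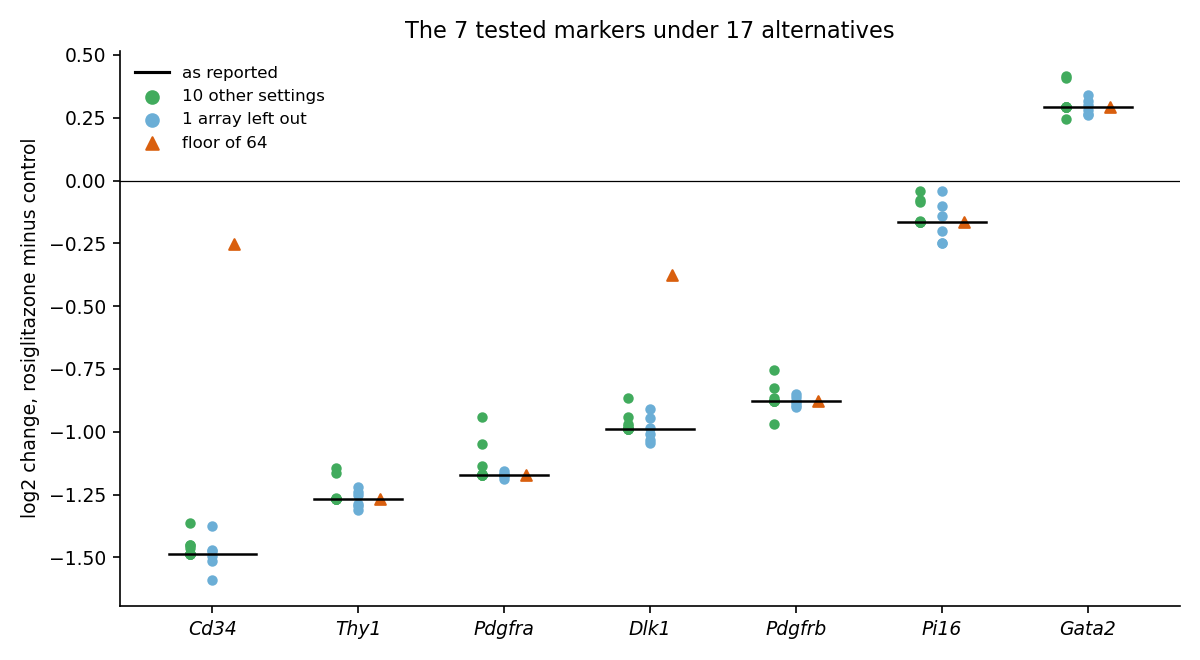
Log2 change, rosiglitazone minus control, of each of the 7 tested markers as reported (black bar), under 10 other settings (green), with 1 array left out (blue) and with a floor of 64 (orange triangles). Cd34 and Dlk1 move to −0.25 and −0.38 with the floor of 64, and Gata2 stays above 0 throughout.

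**Figure D4:**
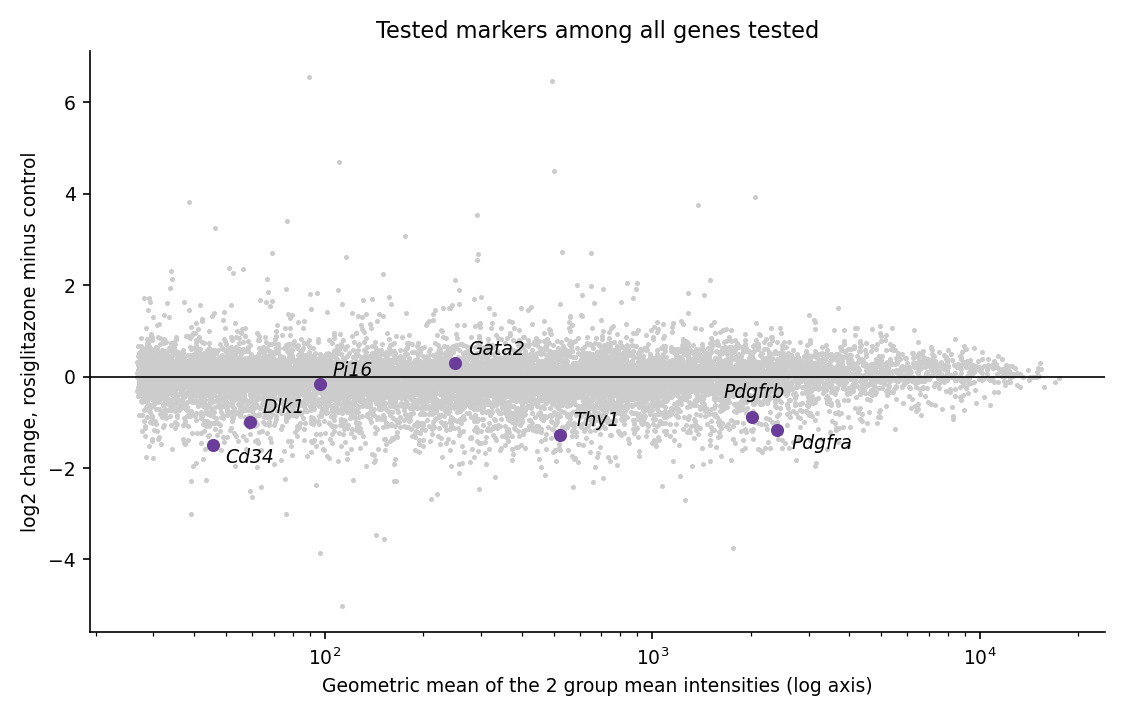
Log2 change, rosiglitazone minus control, against the geometric mean of the 2 group mean intensities (log axis) for all 12936 genes tested (grey) and the 7 tested markers (purple). The 5 markers called lower lie in the lower part of the cloud, from Cd34 at −1.49 to Pdgfrb at −0.88. At least as large a fall was seen in 1.14% of genes for Cd34 and in 5.90% for Pdgfrb. Pi16 and Gata2 lie within the body of the cloud.

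Other progenitor and preadipocyte genes also moved mostly down, where 35.7% of all genes tested were called lower and 23.6% higher. Of 22 tested genes 15 fell and 2 rose, with a median log2 change of −0.55, and 15 fell and 3 rose after quantile normalization and 13 fell and 3 rose after median centring. Mfap5, a microfibril protein gene, read 773.9, 800.2 and 803.2 in rosiglitazone cells against 2884, 2799 and 2897 in control cells (log2 change −1.85, SE 0.04). The small proteoglycan genes Dcn and Lum fell by 1.52 and 1.47, and Fmo2, a marker gene of CD142-positive stromal cells in mouse fat, fell by 1.36. The 2 rises were Col15a1 (0.41), a basement membrane collagen gene, and Ebf2 (0.25), a transcription factor gene of brown and beige preadipocytes. Both were named after their values were seen. Zfp423, a transcription factor gene of fat cell commitment, did not pass the test at 480.1 ± 57.3 in rosiglitazone cells and 501.7 ± 26.1 in control cells (SD, n = 3 each), and was likewise named afterwards.

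Of 10 general mesenchymal surface genes 9 fell, with a median of −0.57, beside 35.7% called lower and 23.6% higher over all genes tested. Vcam1, an adhesion gene, fell by 1.18, Cd248 (endosialin) by 1.17, the tetraspanin gene Cd9 by 1.10 and the aminopeptidase gene Anpep by 0.72, whose call was lost without the filter on low values. The remaining gene, Eng, named after its value was seen, read 89.6 ± 15.8 in rosiglitazone cells and 84.9 ± 1.36 in control cells (SD, n = 3 each). Among other restrainers of fat cell differentiation 8 of 13 tested genes fell and 2 rose, with a median of −0.40 (6 fell and 3 rose after median centring). Besides Sox9, Zfp521, which encodes an antagonist of ZFP423 and EBF factors, fell by 1.31 (−0.72 when its sets were averaged) and Runx1t1, a corepressor gene, fell by 0.78. Wnt5a, a Wnt ligand gene, rose by 0.93 to 348.6 ± 11.6 in rosiglitazone cells against 182.6 ± 5.53 in control cells (SD, n = 3 each). The other rise was Ddit3 (0.78), a stress-response transcription factor gene, named after its value was seen.

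The labelled cell type was checked on mature fat cell genes, which were among the brightest on the arrays. Their summed intensity over 11 tested genes lay between 96188 and 96691 on rosiglitazone arrays and between 94726 and 96177 on control arrays. The sum rests mostly on Fabp4, Lpl, Cd36 and Adipoq, whose sets read 11864 to 17895 where the highest value of any array was 17925, and saturation was not tested, so no stability is read from the sum. Of the 11 genes 4 fell and 3 rose, where 35.7% of all genes tested were called lower and 23.6% higher. Their median log2 change was −0.02, and 4 fell and 7 rose after median centring. Adig, a fat cell gene of lipid storage, rose by 1.03 and Cidec, a lipid droplet gene, by 0.28, while Dgat2, the gene of a triglyceride synthesis enzyme, fell by 0.60 (−1.02 when its sets were averaged) and Pparg by 0.36 (−0.23 after median centring). The 4 genes that missed the threshold, named after their values were seen, were Fabp4 (−0.04), Adipoq (0.04), Lpl (−0.02) and Pnpla2 (−0.01).

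Markers of other cell types differed from list to list, beside 35.7% lower and 23.6% higher over all genes tested. In macrophage markers 10 of 11 tested genes fell, all but Fcgr1 (0.29, named after its value was seen), with a median of −1.48, C1qa at −1.99, Mrc1 at −1.80 and C1qb and C1qc at −1.76 each, and their summed intensity lay between 3822 and 4140.4 on rosiglitazone arrays and between 11454 and 12452 on control arrays. Of 9 tested mural cell markers 5 fell and 3 rose, with a median of −0.70 and summed intensities of 5407 to 5539 on rosiglitazone arrays and 8735 to 9106 on control arrays. Myh11 (−1.96), Mcam (−1.10), Tagln (−1.08) and Abcc9 (−1.02, a call lost with a floor of 64) fell, while Notch3 (0.85), Cspg4 (0.38) and Des (0.21) rose and Rgs5 (0.06) did not pass the test. These last 4 were named after their values were seen. Of 5 tested genes listed as lymphocyte markers 2 fell, neither of them particular to lymphocytes, with a list median of 0.01. Of 3 tested mesothelial markers none fell and 1 rose, Lrrn4 (0.56, and 0.12 with its call lost with a floor of 64). Neither of the 2 tested mast cell markers was called. In RNA from whole cultures, fewer cells of a type and less RNA per cell cannot be told apart, and the part of these cell types in the falls of the progenitor markers was not tested.

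**Figure D5:**
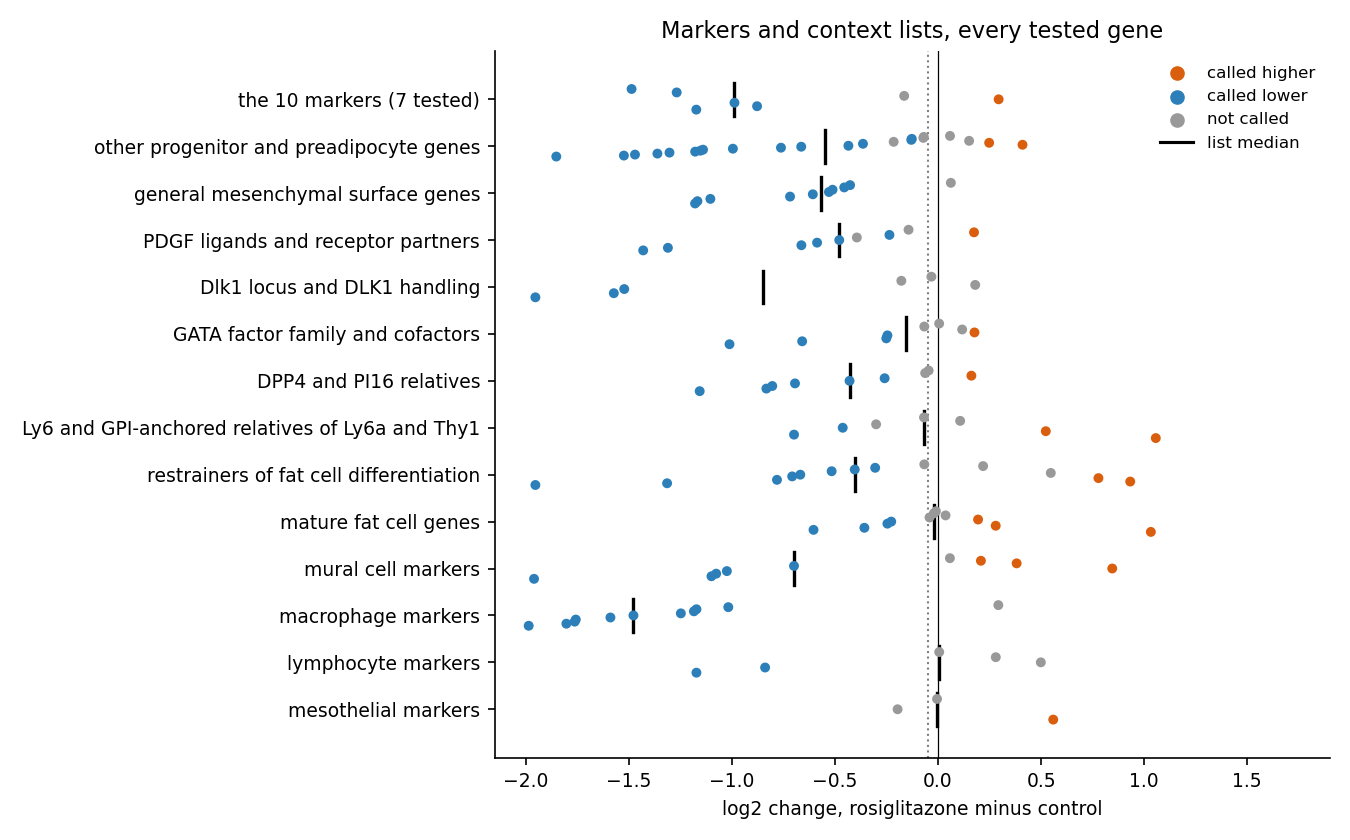
Log2 change, rosiglitazone minus control, of every tested gene (points) in the 10 markers and in the 13 lists with at least 3 tested genes, with the list median as a black bar and the median of all genes as the dotted line. The medians are −0.99 for the markers, −1.48 for macrophage markers, −0.55 for other progenitor genes and −0.02 for mature fat cell genes.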

How the data were processed

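Total RNA of 3 rosiglitazone and 3 control samples was hybridised as biotinylated cRNA to Affymetrix mouse expression arrays, per the labels. The treatment protocol text names the drug for all 6 samples, so groups were taken from titles and treatment labels. The authors deposited intensity per probe set on a linear scale, with similar array medians. Software and scaling are not given in the sources used here. Precision is limited by the number of arrays.

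Besides 64 control probe sets, 34945 had 1 symbol, 932 several and 9160 none in the platform annotation. Intensities under 16 were set to 16 and log2 taken. The dimmest 40% (geometric mean intensity under about 26.6) were left out. limma 3.58.1 in R 4.3.3 (lmFit, eBayes with a variance trend, two-sided) compared the groups across 12936 genes, each read from its brightest probe set, and across 27022 probe sets. The code was tested on simulated data.

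The members, lists, tests and the rule for named genes were chosen with earlier results of these data known. The rule names all 10 members, the PDGF ligands and GATA genes, and per list up to 4 called genes with the largest change, or 2 bright genes of a list with no call. The list of CD34 relatives had 1 tested gene, Crkl (log2 change −0.04, not called). Alternatives covered scaling, filter, floor, probe set rule, variance model, array weights, a replicate block and each array left out.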

Additional observations from a re-analysis of the deposited data

How the results depend on the processing

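Under all 17 alternatives the same number of tested markers, 5, was called lower and 1 higher, and Pi16 was not called under any of them. The log2 change of Pi16 lay between −0.25 and −0.04, that of Pdgfra between −1.19 and −0.94 and that of Thy1 between −1.31 and −1.15. Over the 16 alternatives with single probe sets, 8 marker sets were called lower and 1 higher. The median log2 change of the tested markers, −0.99, was −0.94 after quantile normalization and −0.86 after median centring. With a floor of 64, which lies above the rosiglitazone values of Dlk1 and Cd34 and so shortens both changes, it was −0.38. With 1 array left out it lay between −1.05 and −0.91. Titles number the samples 1 to 3 in both groups, but same-numbered samples did not deviate together (r = −0.04, −0.02 and 0.03 over probe sets), so the numbers were not taken as pairs. With the replicate block the median was −0.99, and 3045 genes were called higher and 4620 lower. Of the PDGF ligands, Pdgfb was called lower under 6 alternatives and Pdgfd under 1, the mean of its sets (−0.30). Markers near the floor, Dpp4, Gata3 and the dimmer sets of Dlk1, Pi16 and Gata2, are limited by signal.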
